A study of Mus musculus with 3 samples.

Results

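The microRNAs described here are those of the miR-34 and miR-449 family on a mouse qRT-PCR panel. All assays named for miR-34a, miR-34b, miR-34c or miR-449 were taken, without star strands, which gave 7 of the 709 microRNA assays: mmu-miR-34a, mmu-miR-34b-5p, mmu-miR-34b-3p, mmu-miR-34c, mmu-miR-449a, mmu-miR-449b and mmu-miR-449c, named from here on without the species prefix. Of these, 6 were measured in all cell types and miR-449c was measured in fibroblasts alone. The study compared neural stem cells (NSCs) derived from the fetal mouse forebrain with embryonic stem cells (ESCs), the pluripotent cells of the early embryo, and with mouse embryonic fibroblasts (MEFs), and asked which microRNAs are high in NSCs. There was 1 sample per cell type, made by pooling RNA in equal amounts, and each was run 2 times on each of 2 plates. The NSC line came from an earlier study and was grown on Matrigel with basic fibroblast growth factor and platelet-derived growth factor-AA. No genotype, allele or treatment is named for the 3 samples. The sources used here do not give the strain, the passage, the number of preparations in each pool, or how the ESCs and MEFs were grown. With 1 sample per cell type no test across samples was possible, and the errors cover the PCR alone. In such bulk samples, fewer cells of a type and less RNA per cell cannot be told apart.

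The family is known as an arm of the p53 response. The p53 protein binds at the genes of miR-34a and of miR-34b and miR-34c after DNA damage, and the microRNAs then repress genes of the cell cycle and of cell survival, among them cyclin-dependent kinases and Bcl2. The miR-449 genes carry the same seed, the stretch at bases 2 to 8 that pairs with target mRNAs, but are best known from epithelia with many cilia and from the testis, where they act together with miR-34b and miR-34c. In the brain miR-34a is known from neurons and from the differentiation of neural progenitors.

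The sequences are shown because they define the family by its seed, and because miR-34b-5p, which differed most between the cell types, shares its seed with miR-34a and miR-449a, which differed little. The RefSeq table (build GRCm38.p6) held a mature sequence for 5 of the 7 assays, miR-34c and miR-449b being the others, and for miR-34c*, the other strand of miR-34c. Names without an arm were read as the 5p arm and miR-34c* as the 3p arm, after the naming rules of miRBase. Capitals mark the seed.
miR-34a: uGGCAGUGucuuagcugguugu
miR-34b-5p: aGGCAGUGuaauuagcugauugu
miR-449a: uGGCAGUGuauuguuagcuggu
miR-449c: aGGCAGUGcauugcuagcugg
miR-34b-3p: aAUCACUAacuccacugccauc
miR-34c*: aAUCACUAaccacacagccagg
The first 4 share the seed GGCAGUG, which no other of the 1679 mature names in the table carries. As the table lacks the sequences of the miR-34c and miR-449b assays, this does not place those assays outside the seed group. miR-34b-3p and miR-34c* share AUCACUA and form a seed group of their own. Counted from the 5′ end without gaps, miR-34b-5p was identical to miR-34a at 11 of 22 positions and to miR-449a at 10 of 22, miR-34a to miR-449a at 15 of 22, and miR-34b-3p to miR-34c* at 17 of 22. The sources used here do not say how well the assays tell such sequences apart.

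The genes lie at 3 places. The mature miR-34a sequence is on the plus strand at chr4:150068473-150068494. The arms of miR-34b lie on the minus strand, the 5p arm at chr9:51103610-51103632 and the 3p arm at chr9:51103574-51103595, with miR-34c* at chr9:51103044-51103065. RefSeq lists 0 genes that start between Mir34b and Mir34c, which are known to be cut from the same primary transcript, and both lie within the spans of Hoatz and Btg4. miR-449a (chr13:113037549-113037570, plus strand) and miR-449c (chr13:113036008-113036028, plus strand) lie within the span of Cdc20b, as does the Mir449b gene. Both arms of miR-34b have assays whose values are compared further on, so its hairpin of 84 bases (chr9:51103562-51103645, minus strand) is given with the 5p arm as the first run of capitals and the 3p arm as the second.
Mir34b hairpin: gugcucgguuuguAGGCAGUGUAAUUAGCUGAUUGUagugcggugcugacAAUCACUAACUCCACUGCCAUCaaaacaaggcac

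A Ct is the PCR cycle at which a product is detected, and 1 cycle is read here as a 2-fold difference in RNA, with an early cycle for much RNA. To obtain the delta Ct, both runs were averaged and the average of U6, RNU43 and U1, small RNAs that serve as references, was subtracted within each plate and cell type, so that a lower delta Ct means more RNA. In NSCs 686 of the 709 assays gave a Ct, in ESCs 680 and in MEFs 700, whereas the 12 wells without template gave a Ct in 0 cases. The reference RNAs did not shift alike. On plate 1, which held all 7 assays of the family, the Ct in NSCs minus that in MEFs was -0.93 cycles for U6 and -1.10 for U1 but 0.78 for RNU43, and RNU43 had 1 measured well in ESCs. The labels were checked with marker microRNAs. The 4 neural markers were called higher in NSCs than in MEFs and in ESCs, and the 7 pluripotency markers were called higher in ESCs than in MEFs. Of the 6 fibroblast markers 5 were called lower in NSCs than in MEFs, but 1 of 6 was called lower in ESCs than in MEFs (log2 folds of -2.49 to -0.999), so that 5 of the 6 stood nearer to MEFs than to NSCs in the ESC sample, miR-214 being the exception.

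miR-34b-5p showed the widest range of the family. Its Ct was 29.00 and 29.37 in the 2 runs of NSCs, 28.14 and 27.91 in those of ESCs, and 24.93 and 24.85 in those of MEFs. Against the reference RNAs this gave a delta Ct of 5.26 ± 0.19 in NSCs, 2.13 ± 0.12 in ESCs and 0.55 ± 0.04 in MEFs. Here and below the ± of a delta Ct is the standard error of the assay's own 2 runs. It leaves out the run error of the reference RNAs, so it is not the full error of the delta Ct. The runs of the 3 cell types did not overlap, NSCs having the least RNA, ESCs standing between and MEFs having the most. This microRNA is the 5p arm of miR-34b and carries the family seed.

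The 3p arm of the same hairpin, which carries the other seed, spanned a smaller range. miR-34b-3p had a Ct of 28.82 and 28.50 in NSCs, 29.18 in the only measured well of ESCs, and 27.18 and 27.47 in MEFs. Its delta Ct was 4.73 ± 0.16 in NSCs, 3.28 in ESCs and 2.98 ± 0.14 in MEFs. NSCs were again lowest in RNA, while the step between ESCs and MEFs was 0.30 ± 0.14 cycles and rests on 1 ESC well. The error of this step comes from the MEF wells alone.

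miR-34c, cut from the neighbouring hairpin, followed the same order. Its Ct was 26.33 and 26.55 in NSCs, 27.22 and 27.38 in ESCs, and 25.44 and 25.55 in MEFs, or a delta Ct of 2.51 ± 0.11 in NSCs, 1.41 ± 0.08 in ESCs and 1.15 ± 0.06 in MEFs. The runs did not overlap, and the step between ESCs and MEFs was 0.26 ± 0.10 cycles. The other strand, miR-34c*, was measured on plate 2 with a Ct of 26.26 and 26.33 in NSCs, 27.73 and 27.98 in ESCs, and 26.10 and 26.12 in MEFs. Its delta Ct of 2.23 ± 0.03 in NSCs lay above the 1.70 ± 0.12 of ESCs and the 1.72 ± 0.0083 of MEFs, which overlapped each other.

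miR-34a, encoded alone on another chromosome and the member most studied as a p53 target, differed little. Its Ct was 27.94 and 27.80 in NSCs, 30.07 and 30.36 in ESCs, and 27.83 and 27.88 in MEFs. Later reference RNAs went with the later Ct in ESCs, so the delta Ct was 3.94 ± 0.07 in NSCs, 4.32 ± 0.15 in ESCs and 3.51 ± 0.03 in MEFs. Against the mean of the reference RNAs the runs did not overlap. The order was MEFs highest, then NSCs, then ESCs, with steps of 0.43 ± 0.07 and 0.39 ± 0.16 cycles. This order depends on the reference, as the first step turned with RNU43 alone and the second with U6 alone. The place of MEFs also rests on the deposited MEF values.

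The miR-449 assays came late and differed little between the cell types. miR-449a had a Ct of 30.28 and 30.49 in NSCs, 32.31 and 33.08 in ESCs, and 30.53 and 30.79 in MEFs, with a delta Ct of 6.45 ± 0.11, 6.80 ± 0.39 and 6.31 ± 0.13 in that order of cell types. miR-449b had a Ct of 30.77 and 30.95 in NSCs, 33.28 and 32.07 in ESCs, and 30.62 and 30.93 in MEFs, with a delta Ct of 6.93 ± 0.09, 6.79 ± 0.60 and 6.43 ± 0.15. For both microRNAs the runs of cell types adjacent in level overlapped, though those of miR-449b in NSCs and MEFs did not, and the ESC wells lay above a Ct of 32, where the gap between the runs was 0.78 cycles for miR-449a and 1.21 cycles for miR-449b. miR-449c gave no Ct in NSCs and ESCs and a Ct of 32.06 and 31.19 in MEFs, a late value, so its level in NSCs and ESCs has no measure here.

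**Figure D1:**
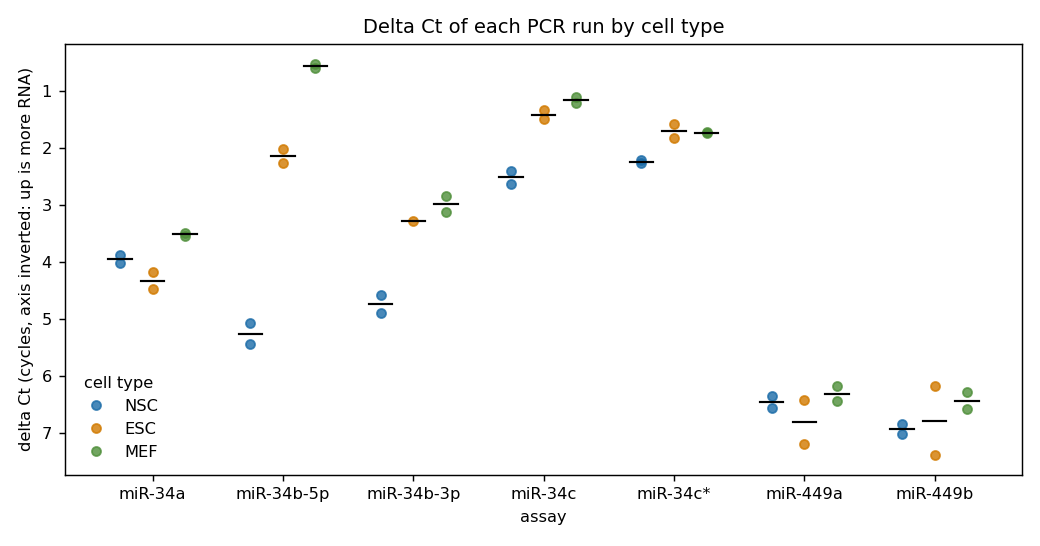
Delta Ct in cycles (inverted axis, so that up is more RNA) of each PCR run (points) and their mean (black bars) for the miR-34 and miR-449 assays and miR-34c* in NSCs, ESCs and MEFs. miR-34b-5p lies at 5.26 in NSCs, 2.13 in ESCs and 0.55 in MEFs, while the ESC points of miR-449a and miR-449b overlap those of the other cell types.

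Against MEFs, miR-34b-5p was the only member called different in NSCs. A microRNA was called where 3 conditions held, a fold of 4 or more (2 or more on the log2 scale), no overlap of the runs, and an average Ct no later than 32 on the side with more RNA. The log2 fold of NSCs over MEFs is the delta Ct of MEFs minus that of NSCs, given ± the PCR error. This error comes from the standard errors of the assay's runs in both samples and leaves out those of the reference RNAs. For miR-34b-5p the log2 fold was -4.71 ± 0.19, so that its level in MEFs was 26.2 times that in NSCs. It ranked 34 from the lowest of 685 microRNAs measured in both. A share of 13.9% of these 685 was called lower in NSCs and 1.75% higher, 15.6% in all, so 1 call among 6 members is near the background. The others lay between -1.75 and -0.14. miR-34b-3p was at -1.75 ± 0.21 and miR-34c at -1.36 ± 0.12, with runs that did not overlap but a fold under 4. miR-34a was at -0.43 ± 0.07, close to the median of -0.48 over all 685, and miR-449b at -0.50 ± 0.18. miR-449a, at -0.14 ± 0.17, was within the PCR error of no difference. The median of the 6 members was -0.93, or -0.50 without miR-34b-5p. Of the 6 fibroblast markers, 5 were called lower in NSCs as well, with a median log2 fold of -7.97, and their part in the difference of miR-34b-5p was not tested. The study also published a further set of MEF Ct values for these assays, all of them later, beside the same NSC and ESC values. That set was not used for any value, but with it every member would stand higher in NSCs than in MEFs and none would reach the fold needed for a call, so the direction of this comparison rests on the deposited MEF values.

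Against ESCs, miR-34b-5p was again the only member called, and this comparison does not depend on the MEF values. The log2 fold of NSCs over ESCs was -3.12 ± 0.22, a level 8.71 times as high in ESCs as in NSCs, with rank 101 from the lowest of 678. Here 14.9% of the 678 microRNAs were called lower in NSCs and 2.95% higher, 17.8% in all, which again puts 1 of 6 near the background. miR-34b-3p was at -1.45 ± 0.16, with 1 ESC well and an error from the NSC wells alone, and miR-34c at -1.10 ± 0.14, both with runs apart and a fold under 4. miR-34a stood in the other direction, at 0.39 ± 0.16, while miR-449a (0.35 ± 0.40) and miR-449b (-0.15 ± 0.61) had errors larger than the difference. The median of the 6 members was -0.62, or -0.15 without miR-34b-5p, beside -0.42 over all 678. The fibroblast markers moved with miR-34b-5p here too, 5 of 6 being called lower in NSCs with a median log2 fold of -6.19 (range -8.29 to -0.53), and their part was likewise not tested.

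Between ESCs and MEFs none of the 6 members was called, beside 5.3% of 679 microRNAs called higher and 3.24% called lower in ESCs, 8.54% in all. All 6 log2 folds of ESCs over MEFs were below 0, as was the median of all 679 microRNAs (-0.11). miR-34b-5p was at -1.59 ± 0.12, short of the size needed for a call. miR-34a was at -0.82 ± 0.15, miR-34b-3p at -0.30 ± 0.14 and miR-34c at -0.26 ± 0.10, and the errors of miR-449a (-0.49 ± 0.41) and miR-449b (-0.36 ± 0.62) were of the size of the difference or larger. With the further set of MEF values all 6 would stand higher in ESCs, miR-34b-5p and miR-34c by a fold large enough for a call, so this order too rests on the deposited MEF values.

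**Figure D2:**
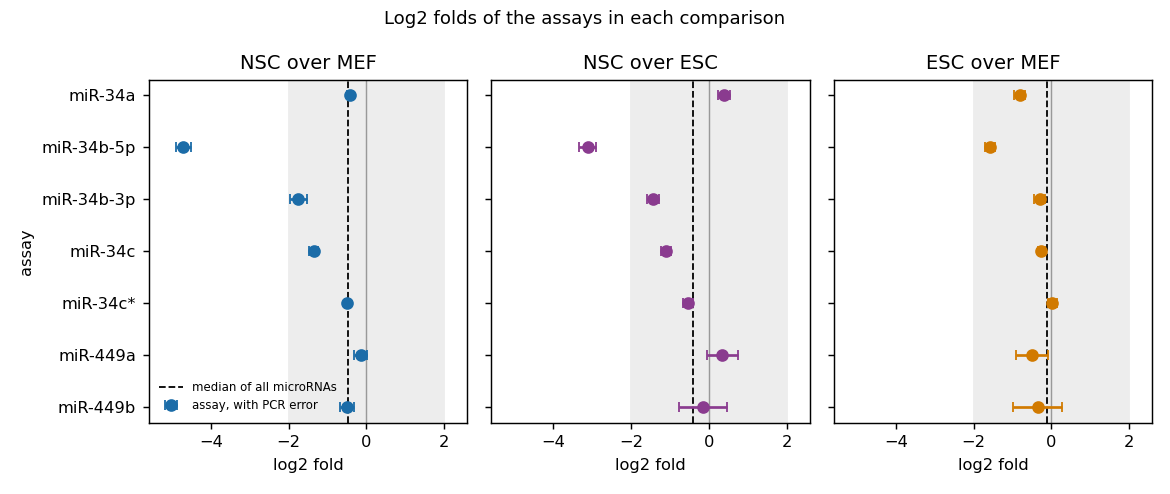
Log2 fold of each assay (points, with the PCR error as bars) for NSC over MEF, NSC over ESC and ESC over MEF, with the median of all microRNAs as a dashed line and the band of log2 folds below 2 in size in grey. miR-34b-5p lies outside the band at -4.71 and -3.12 in the comparisons of NSCs, and at -1.59 it lies inside the band between ESCs and MEFs.

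With the deposited values the arms of miR-34b did not move together. Both assays were on plate 1, so the reference RNAs cancel when their log2 folds are set against each other. The log2 fold of miR-34b-5p minus that of miR-34b-3p was -2.96 ± 0.29 for NSCs over MEFs, -1.68 ± 0.27 for NSCs over ESCs and -1.28 ± 0.19 for ESCs over MEFs. The errors with ESCs leave out miR-34b-3p in ESCs and are too small for that reason, as these values rest on 1 ESC well of miR-34b-3p. Where its unmeasured ESC well was set to a Ct of 35 or 32, the difference for ESCs over MEFs turned to 1.63 or 0.13, and that for NSCs over ESCs was -4.59 or -3.09. Both settings are far from the measured ESC well of miR-34b-3p, at 29.18. The runs of this assay were 0.32 cycles apart in NSCs and 0.28 in MEFs. Why the other ESC well was empty was not tested. In Ct, miR-34b-5p minus miR-34b-3p was 0.53 cycles in NSCs, -1.15 in ESCs and -2.43 in MEFs. Assays differ in how well they amplify, so only the change of this gap between cell types can be read. Against miR-34c, from the same primary transcript, the difference was -3.35 ± 0.23 for NSCs over MEFs, -2.02 ± 0.26 for NSCs over ESCs and -1.33 ± 0.16 for ESCs over MEFs. The values with MEFs rest on the deposited MEF Ct. With the further set of MEF values both differences for NSCs over MEFs would be under 2 in size, and that between the arms for ESCs over MEFs would be above 0, while the values for NSCs over ESCs would stay as they are. Over the deposited values miR-34b-3p and miR-34c, in contrast, had like profiles, 0.30 cycles apart, where the distance is Euclidean over the 3 delta Ct values after each profile was centred on its mean. miR-34b-5p was 2.10 cycles from miR-34b-3p and 2.39 cycles from miR-34c on this measure.

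Other pairs of the family stayed closer. For miR-34c minus miR-34c*, measured on different plates, the difference was -0.85 ± 0.13 for NSCs over MEFs, -0.57 ± 0.19 for NSCs over ESCs and -0.28 ± 0.16 for ESCs over MEFs. miR-449a and miR-449b, which share their transcript, differed by 0.36 ± 0.25, 0.50 ± 0.73 and -0.14 ± 0.75 in these comparisons, and only the first of these values was larger than its error. miR-34a and miR-449a, from different chromosomes but with a shared seed, had profiles 0.25 cycles apart.

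To set the gap of the miR-34b arms beside other hairpins, all hairpins on the panel whose arms both averaged a Ct no later than 32 in the cell types compared were taken. For NSCs over MEFs there were 69 such pairs, with a median size of the difference of 0.58, and 5 pairs, counting that of miR-34b, had one of at least 2.96, a standing that rests on the deposited MEF values as well. The other 4 were those of miR-214, among the fibroblast markers, and of miR-431, miR-540-5p and miR-872, picked out here for their values. The miR-872 pair was at 4.45 ± 3.10, with an error near the size of the difference. The arms of miR-214 and of miR-431 were on different plates, where the reference RNAs do not cancel. For NSCs over ESCs 8 of 40 pairs were at least as far apart as the arms of miR-34b (median 0.76), and for ESCs over MEFs 16 of 52 (median 0.79). The miR-34c pair was exceeded or equalled by 25 of 69, 25 of 40 and 47 of 52 pairs, which include itself.

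**Figure D3:**
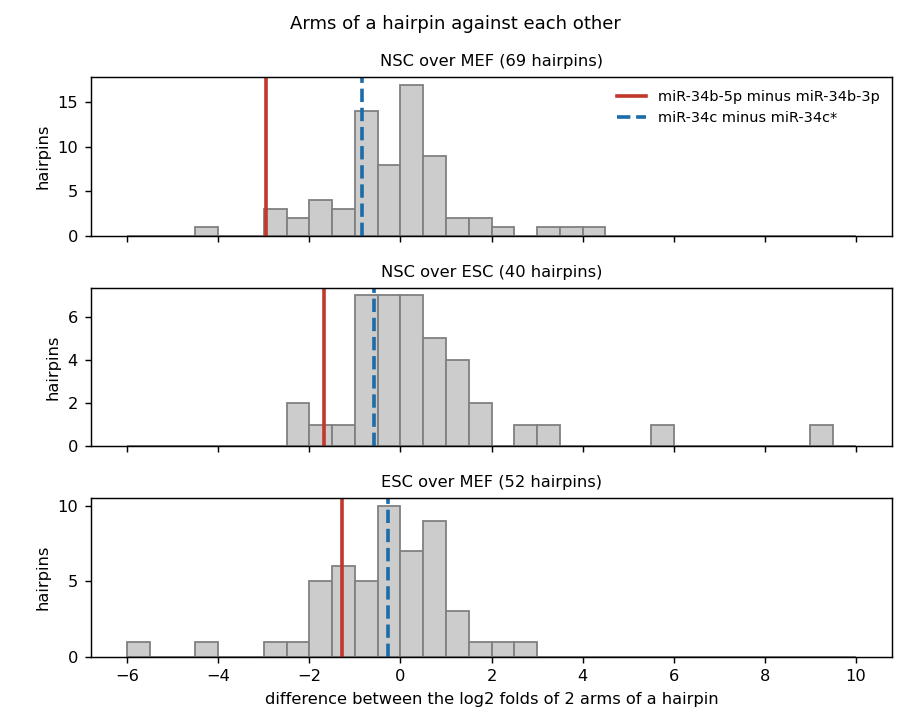
Number of hairpins (bars) by the difference between the log2 folds of their arms, 5p minus 3p or main strand minus star strand, for each comparison, with miR-34b-5p minus miR-34b-3p as a red line and miR-34c minus miR-34c* as a dashed blue line. The red line lies at -2.96 among 69 hairpins for NSC over MEF and at -1.68 among 40 for NSC over ESC.

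Of 322 microRNAs whose Ct averaged 32 or earlier in every cell type, those with the profile most like miR-34b-5p over the 3 samples were miR-21, known from fibroblasts and many growing cells (0.37 cycles apart), miR-692 (0.71) and miR-409-3p, from the imprinted Dlk1-Dio3 cluster (0.76). For miR-34c they were miR-28* (0.07), miR-718 (0.08) and miR-1983 (0.15), and for miR-34b-3p they were miR-1983 (0.22), miR-410 (0.22) and miR-718 (0.30), so these 2 assays shared 2 of their 3 neighbours. miR-34a was closest to miR-19a (0.11), miR-2144 (0.11) and miR-467f (0.19). miR-449a was closest to miR-338-5p (0.09), miR-15b* (0.09) and let-7b* (0.17), and miR-449b to miR-770-3p (0.02), miR-493 (0.06) and miR-129-5p (0.08). With 3 points per profile many microRNAs are close by, and the list is a description.

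The other microRNAs linked to p53 were taken as a list of 15. It held 9 that p53 is known to activate or to help process, mostly from work in human cells (miR-192, miR-194, miR-215, miR-107, miR-143, miR-145, miR-15a, miR-16 and miR-200c), 5 known to target the p53 mRNA (miR-125a-5p, miR-125b-5p, miR-25, miR-30d and miR-504), and miR-34c*. For NSCs over MEFs 0 of the 15 were called higher and 2 were called lower, miR-143 at -6.62 ± 0.37 and miR-145 at -7.66 ± 0.09, beside 1.75% and 13.9% of all microRNAs, so that the lower calls are near the background. Both are encoded together, are known from smooth muscle and mesenchymal cells, and were also among the fibroblast markers. The median of the 15 was 0.04, beside -0.48 over all microRNAs. In this comparison, which rests on the deposited MEF values, the parts of the list had different medians. The median was 0.78 for the 9 (range -7.66 to 1.71) and -1.47 for the 5 that target the p53 mRNA (range -1.91 to 0.38). The other comparisons did not show this contrast. The medians of the 9 and the 5 were -0.61 and -0.41 for NSCs over ESCs, and -0.74 and -0.48 for ESCs over MEFs. For NSCs over ESCs 2 were called higher, miR-16 at 2.63 ± 0.11 and miR-107 at 2.40 ± 0.44, and 3 lower, miR-143 at -5.49 ± 0.37, miR-145 at -6.60 ± 0.10 and miR-200c, a microRNA of epithelial and pluripotent cells, at -5.45 ± 0.61. The shares over all microRNAs were 2.95% higher and 14.9% lower. The median was -0.53, beside -0.42 over all microRNAs. For ESCs over MEFs miR-200c was the only one called, at 7.16 ± 0.99, beside 5.3% of all microRNAs called higher and 3.24% lower, and the median was -0.48 beside -0.11. None of the 5 that target p53 was called in any comparison. For NSCs over MEFs miR-125b-5p was at -1.91 ± 0.07 and miR-125a-5p at -1.47 ± 0.08, and for NSCs over ESCs they were at -1.14 ± 0.08 and -0.99 ± 0.10. The others did not share one direction. For NSCs over MEFs miR-25 was at -0.26 ± 0.09, miR-30d at 0.38 ± 0.10 and miR-504 at -1.49 ± 0.89. For NSCs over ESCs they were at -0.41 ± 0.11, 0.03 ± 0.16 and 1.51 ± 1.63.

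The calls of miR-34b-5p were checked under 10 other settings. Its log2 fold ranged from -5.40 to -3.51 for NSCs over MEFs and from -3.75 to -2.15 for NSCs over ESCs, and it was called lower in NSCs under all 10 in both comparisons. For ESCs over MEFs it ranged from -1.93 to -1.36 and was called under 0. The settings for late or empty wells and for runs within 1 cycle could not move it, as its wells were early and its runs close. With a single run the condition of no overlap adds nothing to the fold. The further set of MEF values was not among the settings, and with it miR-34b-5p would stand higher in NSCs than in MEFs. miR-34a ranged from -1.12 to 0.77 for NSCs over MEFs and from -0.24 to 1.36 for NSCs over ESCs, and its direction turned with RNU43 alone (0.77) and with the mean of well-measured microRNAs as reference (0.39) in the first comparison, and with U6 alone in the second (-0.24). miR-34b-3p, for NSCs over ESCs, turned to 1.47 where its empty ESC well was set to a Ct of 35, and was at -0.034 where it was set to 32. The direction of miR-449a and miR-449b turned in every comparison under some setting.

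**Figure D4:**
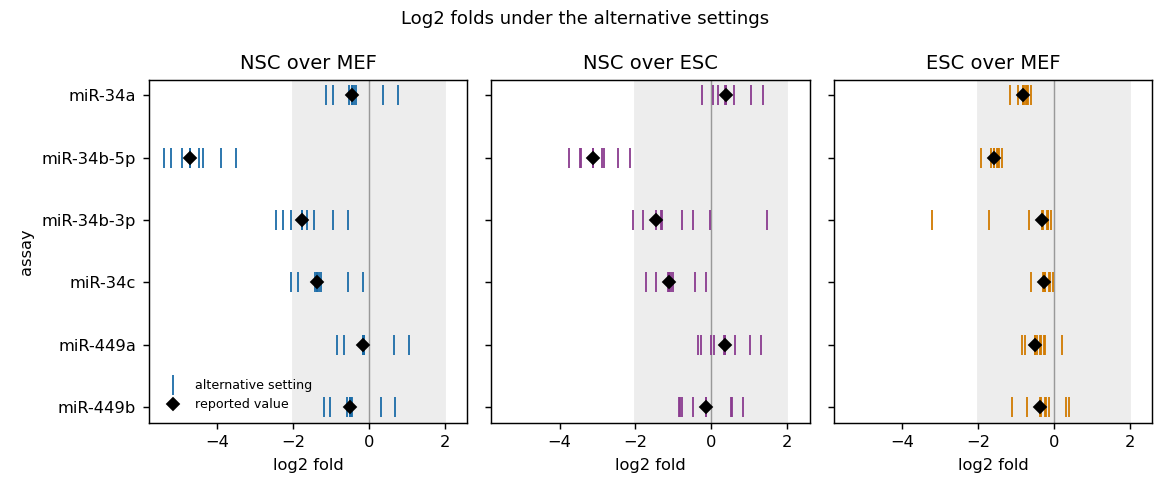
Log2 fold of each member as reported (black diamonds) and under each alternative setting (ticks) for NSC over MEF, NSC over ESC and ESC over MEF, with the band of log2 folds below 2 in size in grey. The ticks of miR-34b-5p stay between -5.40 and -3.51 for NSC over MEF and between -3.75 and -2.15 for NSC over ESC, outside the band.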

How the data were processed

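Small RNAs of 1 NSC, 1 ESC and 1 MEF sample were tailed, reverse transcribed from an oligo-dT adaptor and amplified with SYBR Green on a panel based on miRBase version 14. The authors deposited a Ct per well, in cycles, a delta Ct per sample, and folds with p-values, which were not used. The threshold behind the Ct is not stated. Delta Ct values were derived anew, because the deposited ESC column of plate 1 differs from them by -6.90 cycles at every assay, while the other columns equal them. Log2 folds assume 2-fold amplification per cycle, and unmeasured wells were left out. No test was run, as each group is 1 sample, and the PCR error combines the standard errors of the assay's own runs. The mean of the reference RNAs was taken as fixed, both in the errors and where overlap of runs was judged. Members, lists and the naming rule (the family, miR-34c*, the p53-linked list, markers, reference RNAs, and the 3 nearest profiles per member) were chosen with earlier results of these data known, and the survey of hairpin arms was added after values had been seen. A further set of MEF Ct values published by the study was not used, and every value with MEFs rests on the deposited set. The calculation was tested on simulated data in which the reference RNAs were equal in all samples and no well was empty. That test therefore does not cover reference RNAs that shift apart or wells without a Ct. Python 3.11.15, pandas 2.3.3, numpy 2.4.6 and matplotlib 3.10.9 were used.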

Additional observations from a re-analysis of the deposited data

How the results depend on the processing

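The alternatives were U6, RNU43 or U1 alone as reference, a reference made of well-measured microRNAs, wells that were late or empty put at 35 or at 32, a single run, 1.9-fold amplification, and runs within 1 cycle of each other. miR-34b-5p was called lower in NSCs under all of them in both comparisons. The settings for late or empty wells and for runs within 1 cycle could not change its values, and the further MEF values were not among the settings. No paired analysis was possible because there is 1 sample per cell type. The members' median for NSCs over MEFs (-0.93) was -1.44 with U6, 0.27 with RNU43, -1.62 with U1 and -0.11 with the microRNA reference. For NSCs over ESCs (-0.62) it was -1.25, 0.35, -0.97 and 0.046 in that order, 0.10 with late wells at 35, -1.10 with runs within 1 cycle, and -0.99 to 0.071 with single runs. For ESCs over MEFs (-0.42) it was -0.20 with RNU43, -0.76 with U1, -0.65 with late wells at 35, and -0.70 to -0.51 with single runs. Members called lower in NSCs than in MEFs numbered 2 with U6, 3 with U1 and 1 to 2 with single runs (1 as reported), the additions being miR-34b-3p and, with U1, miR-34c. With U6, 2 were called lower in NSCs than in ESCs, and with late wells at 35, miR-34b-3p was the 1 called lower in ESCs than in MEFs, through its empty ESC well. Over all microRNAs, calls for NSCs over MEFs were 50 higher with RNU43 and 21 with the microRNA reference (12 as reported), and 60 lower with RNU43 and 153 with U1 (95). For NSCs over ESCs they were 56 higher with RNU43, 40 with the microRNA reference, 10 with late wells at 32 and 13 with runs within 1 cycle (20), and 198 lower with late wells at 32 (101). For ESCs over MEFs 35 were lower with U1 (22). In the p53-linked list, 2 were higher with RNU43 (0) and 4 lower with U1 (2) for NSCs over MEFs. For NSCs over ESCs 1 was higher with U6 or late wells at 32, and 1 to 3 with single runs (2). For ESCs over MEFs 0 were higher with runs within 1 cycle (1) and 1 was lower with U1 (0). The difference between the miR-34b arms was -3.49 to -2.44 with single runs for NSCs over MEFs. For NSCs over ESCs it was -4.59 and -3.09 with late wells at 35 and 32, and -2.14 with the second run, the only one that could be used. For ESCs over MEFs it was 1.63 and 0.13 with late wells at 35 and 32. Within a comparison, a change of reference moves the log2 folds of all members by the same amount, as their assays were on plate 1. The causes of the other shifts were not tested, apart from the empty ESC well of miR-34b-3p, which takes the limit itself. The 1 sample per cell type and the late miR-449 wells limit what can be read.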
